A study of Arabidopsis thaliana with 12 samples.

Results

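The comparison described here is the difference between the latrunculin B response of sid2 leaves and that of wild-type leaves of Arabidopsis thaliana, gene by gene. For each gene the log2 fold change of latrunculin B over DMSO in wild type (WT) was subtracted from the same fold change in sid2, and this difference of log2 fold changes is called the interaction below. It uses all 12 libraries of the series and was estimated for 18149 genes out of 27313 loci in the deposited tables, those with enough reads to be tested. A positive interaction means a higher log2 response in sid2, and a negative one a lower log2 response in sid2.

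The 4 groups held 3 libraries each. They were leaves labelled sid2 with latrunculin B (sid2-latB), leaves labelled sid2 with DMSO (sid2-DMSO), wild-type Col-0 leaves with latrunculin B (WT-latB) and Col-0 leaves with DMSO (WT-DMSO). All plants were 4 weeks old, grown in days with less light than dark, and the mature leaves, 3 on each plant, received 1 µM latrunculin B or 0.01% DMSO from a syringe without a needle and were frozen 24 h later. The labels give no allele of sid2, no number of plants behind a library and no batch, so each p-value reflects only library-to-library spread, which may be technical.

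Latrunculin B binds actin monomers and so removes actin filaments from cells. The sid2 mutants lack a functional ICS1, the isochorismate synthase of chloroplasts from which most salicylic acid (SA) is made, the hormone behind defence against biotrophic pathogens. SA-dependent defence in Arabidopsis calls on the secretory pathway: proteins of the endoplasmic reticulum (ER) fold, glycosylate and export the pathogenesis-related proteins, and the unfolded protein response sets how much of this machinery is made.

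Library totals lay between 14506953 and 22449381 estimated reads. Levels are given as CPM, reads scaled to a common library size. On the first principal component of log2 CPM, with 51.7% of the variance, the 3 WT-latB libraries stood apart from the other 9. In WT-latB the top 10 genes made up 8.66% to 10.9% of a library, against 14.1% to 17.9% elsewhere, and the TMM scaling factors were 1.17 to 1.26 in WT-latB and 0.885 to 1.00 in the others. One sid2-DMSO library, replicate 3, stood apart from the other two of its group on the third component, and without it 2580 genes were higher and 1962 lower in the interaction defined above. ICS1 itself had 322, 299 and 385 CPM in sid2-latB, against 372, 371 and 365 CPM in sid2-DMSO, and 111, 136 and 161 CPM in WT-latB, against 21.6, 22.3 and 23.9 CPM in WT-DMSO. The reads of a gene do not test a mutation in it, and ICS1 reads were most abundant in libraries labelled sid2. PR1, the marker of SA-dependent defence, had 3.87, 1.68 and 7.58 CPM in sid2-latB, against 0.124, 0 and 0.357 CPM in sid2-DMSO, and 4145, 3688 and 5267 CPM in WT-latB, against 153, 119.8 and 79.4 CPM in WT-DMSO. Each sid2 library lay below every WT library for PR1.

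Of the genes tested, 4384 (24.2%) passed the interaction threshold of an adjusted p under 0.05 in edgeR's quasi-likelihood test. The log2 response was higher in sid2 for 2436 genes (13.4%) and lower for 1948 genes (10.7%). With an absolute log2 difference of at least 1 as well, 1625 genes (8.95%) were higher and 1133 genes (6.24%) lower. Within the sid2 libraries 859 genes (4.73%) passed for latrunculin B against DMSO, of which 640 (3.53%) rose and 219 (1.21%) fell, and within the WT libraries 8127 genes (44.8%) passed, of which 4012 (22.1%) rose and 4115 (22.7%) fell. The genes with a higher interaction had a median log2 response of 0.03 in sid2 and -1.19 in WT, and those with a lower interaction had -0.08 in sid2 and 1.03 in WT. These values share libraries with the interaction and describe it. Between the genotypes, 2001 genes (11%) passed under DMSO, with 810 (4.46%) higher and 1191 (6.56%) lower in sid2, and 7870 (43.4%) under latrunculin B, with 4020 (22.1%) higher and 3850 (21.2%) lower. The split between directions moved with the scaling: with library size alone 1820 genes were higher and 2975 lower, and the median interaction of all genes was then -0.17, against 0.02 with TMM.

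**Figure D1:**
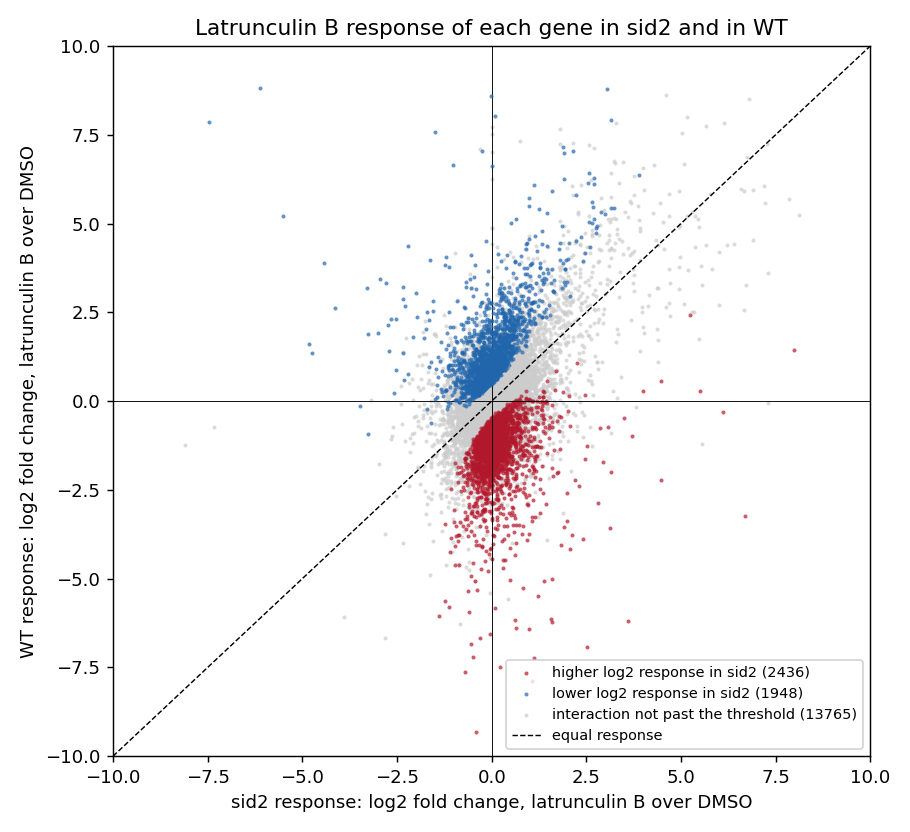
Log2 fold change of latrunculin B over DMSO for each of 18149 genes, in sid2 on the horizontal axis and in WT on the vertical axis, with genes past the interaction threshold coloured by direction. The 2436 genes with a higher log2 response in sid2 lie below the dashed line of equal response and the 1948 with a lower one above it.

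The 43 gene lists followed here cover ER function, SA, immune signalling, chloroplasts, the cytoskeleton, the cell wall, hormones and markers of leaf cell types. Lists of the ER, SA synthesis, the EDS1 node of immunity and cysteine-rich receptor-like kinases held members with lower interactions and few or none with higher ones. Lists of the cell wall, tubulins, auxin-induced growth and photosynthesis held the reverse. Among other immune lists, 4.35% of pattern recognition genes, 14.3% of camalexin genes and 12.5% of WRKY factors were lower, against 10.7% of all genes tested.

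**Figure D2:**
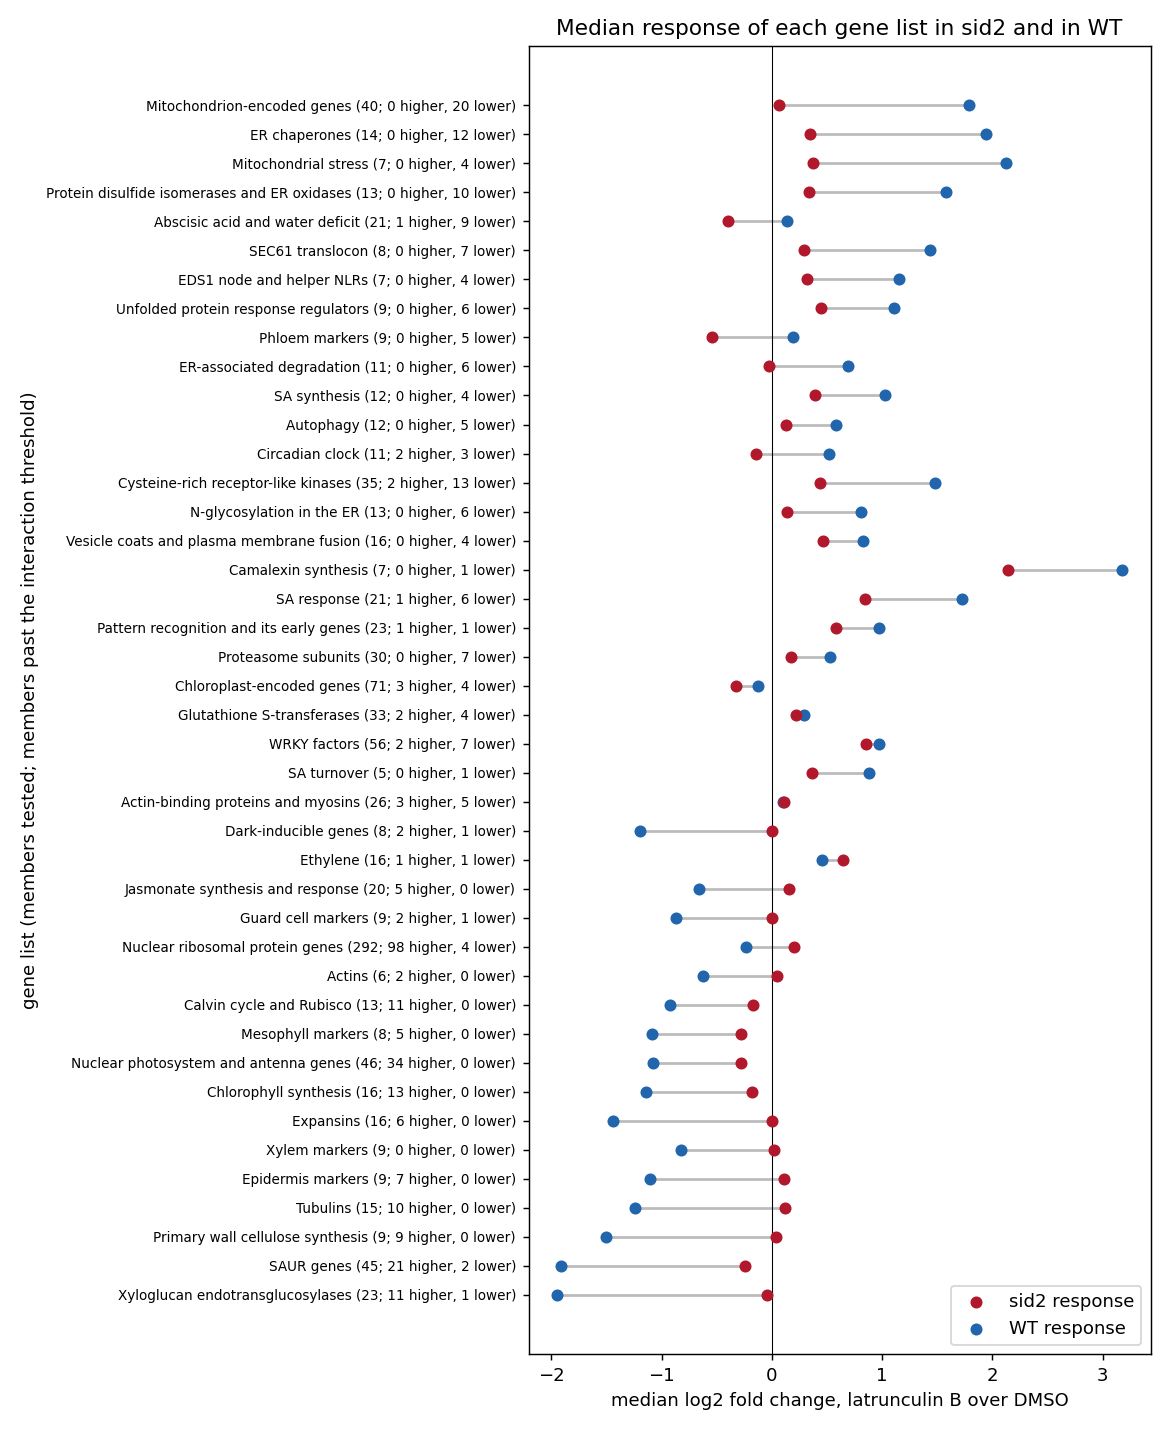
Median log2 fold change of latrunculin B over DMSO in sid2 and in WT for each gene list with at least 5 members tested, ordered by the median interaction. In the ER lists the WT medians lie to the right of the sid2 medians, and in the wall, tubulin and photosynthesis lists they lie to the left.

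Of all lists, those of ER chaperones, of disulfide bond formation and of the SEC61 translocon had the largest shares of members with a lower interaction. Of 14 ER chaperone genes, 12 were lower and none higher, with a median interaction of -1.51, a median log2 response of 0.34 in sid2 and 1.95 in WT. Of 13 genes for protein disulfide isomerases and ER oxidases, which form disulfide bonds, 10 were lower and none higher, with a median of -1.32. Of 8 genes of the SEC61 translocon, the channel through which new proteins enter the ER, 7 were lower and none higher, with a median of -1.13. Over the fits without 1 library, 12 to 13 chaperone genes, 7 to 11 disulfide isomerase and oxidase genes and 6 to 7 SEC61 genes were lower. The median over all genes tested was 0.02.

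BIP3, the stress-induced member of the ER HSP70 chaperones, had 14.1, 15.2 and 17.7 CPM in sid2-latB, against 26.3, 30.2 and 18.3 CPM in sid2-DMSO, and 134, 171 and 214 CPM in WT-latB, against 15.6, 15.6 and 19.1 CPM in WT-DMSO. The 3 WT-latB libraries lay far above the other 9, and WT-DMSO overlapped both sid2 groups. Its interaction was -4.03 ± 0.29 (SE, edgeR adjusted p = 2.57e-05), the most negative among the ER genes. BIP1, a constitutive member of the same family, had 273, 307 and 299 CPM in sid2-latB, against 211, 190.3 and 237 CPM in sid2-DMSO, and 1242, 1050 and 1471 CPM in WT-latB, against 254, 287 and 253 CPM in WT-DMSO. Its interaction was -1.78 ± 0.20 (edgeR adjusted p = 0.000134). BIP1 and BIP2 are near-identical, so reads could be divided between them. For BIP2 the log2 response passed in both genotypes, at 0.80 in sid2 and 2.51 in WT.

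The calreticulins bind glycoproteins during folding. CRT1B had 164, 148 and 179 CPM in sid2-latB, against 154, 164 and 189 CPM in sid2-DMSO, and 504, 464 and 537 CPM in WT-latB, against 124, 126 and 123 CPM in WT-DMSO. The 3 WT-latB libraries were high and the other 9 were close to each other, and the interaction was -2.06 ± 0.18 (edgeR adjusted p = 3.27e-05). ERDJ3B, a J-domain partner of BiP, had 95.9, 97.1 and 103 CPM in sid2-latB, against 96.8, 96.0 and 83.9 CPM in sid2-DMSO, and 341, 308 and 379 CPM in WT-latB, against 76.0, 76.7 and 87.7 CPM in WT-DMSO. WT-latB was again above the other groups, and its log2 response was 0.10 in sid2 and 2.1 in WT, an interaction of -2.0 ± 0.17 (edgeR adjusted p = 3.56e-05). The 2 chaperone genes that did not pass were ERDJ2A, with an interaction of -0.62, and the cochaperone gene BAG7, with 0.96.

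Among the disulfide isomerases, PDIL1-2 had 66.0, 79.4 and 72.4 CPM in sid2-latB, against 50.9, 42.9 and 51.7 CPM in sid2-DMSO, and 329, 361 and 362 CPM in WT-latB, against 53.9, 50.1 and 51.3 CPM in WT-DMSO. Its log2 response passed in both genotypes, at 0.58 in sid2 (edgeR adjusted p = 0.0154) and 2.76 in WT, and the interaction was -2.18 ± 0.17 (edgeR adjusted p = 2.85e-05). PDIL1-1, PDIL2-2 and PDIL2-1 had interactions of -1.92 ± 0.17, -1.87 ± 0.20 and -1.41 ± 0.17. The sid2 responses of PDIL2-2 and PDIL2-1 also passed, at 0.72 and 0.60. In the translocon, the SEC61 beta gene AT3G60540 had 4.75, 5.37 and 5.46 CPM in sid2-latB, against 5.21, 3.39 and 4.42 CPM in sid2-DMSO, and 35.4, 34.8 and 44.5 CPM in WT-latB, against 5.88, 3.88 and 4.02 CPM in WT-DMSO. WT-latB libraries lay above the others, whose groups overlapped, and the interaction was -2.82 ± 0.29 (edgeR adjusted p = 8.5e-05). The SEC61 gamma gene AT4G24920 had -1.51 ± 0.19, the second gamma gene AT5G50460 -1.66 ± 0.30 and the alpha gene AT1G29310 -1.10 ± 0.20.

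Quality control in the ER followed with smaller differences. Of 11 genes of ER-associated degradation, which sends misfolded proteins to the proteasome, 6 were lower and none higher. The lower count was 4 to 7 over the fits without 1 library. HRD1B, a ubiquitin ligase of this route, had 44.4, 41.0 and 43.9 CPM in sid2-latB, against 40.0, 45.3 and 29.7 CPM in sid2-DMSO, and 149, 148 and 152 CPM in WT-latB, against 36.9, 31.0 and 34.7 CPM in WT-DMSO. Its interaction was -1.96 ± 0.20 (edgeR adjusted p = 8.9e-05), and that of its partner HRD3A was -1.07 ± 0.17. DER1, a derlin of the export channel, had -0.93 ± 0.24, and UBC32, a ubiquitin-conjugating enzyme, -0.99 ± 0.25. Of 13 genes of N-glycosylation and glycan-dependent folding, 6 were lower and none higher, with a median of -0.51. Without 1 library, 4 to 6 were lower. EBS1, the glucosyltransferase that tests the fold of glycoproteins, had 59.7, 57.9 and 62.6 CPM in sid2-latB, against 42.7, 40.6 and 43.0 CPM in sid2-DMSO, and 121, 123 and 136 CPM in WT-latB, against 52.7, 56.8 and 52.7 CPM in WT-DMSO. Its log2 response passed in sid2 at 0.51 and in WT at 1.23, and the interaction was -0.71 ± 0.15 (edgeR adjusted p = 0.00459). STT3A and STT3B, catalytic subunits of oligosaccharyltransferase, had interactions of -0.84 ± 0.18 and -0.67 ± 0.16.

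Of 9 regulators of the unfolded protein response, 6 were lower and none higher. BI1, an ER membrane protein that restrains cell death, had 75.6, 67.2 and 77.3 CPM in sid2-latB, against 42.4, 34.5 and 48.7 CPM in sid2-DMSO, and 197, 221 and 246 CPM in WT-latB, against 43.9, 49.9 and 44.8 CPM in WT-DMSO. It rose in both genotypes, by 0.81 on the log2 scale in sid2 and 2.26 in WT, and its interaction was -1.45 ± 0.20 (edgeR adjusted p = 0.00036). The membrane-bound transcription factors NAC062, NAC089 and BZIP17 had interactions of -1.27 ± 0.25, -1.65 ± 0.30 and -0.95 ± 0.23, and BZIP60, whose messenger is spliced in ER stress, had -1.19. BZIP28 and the splicing kinases IRE1A and IRE1B did not pass, with -0.54, -0.28 and -0.31. Among 16 genes of vesicle coats and of fusion at the plasma membrane, 4 were lower (SEC22, SAR1B, SNAP33 and VAMP722), and this count was 7 without sid2-DMSO replicate 2, 0 without sid2-latB replicate 1, and 1 or 2 without any other library except WT-DMSO replicate 3 and WT-latB replicate 1.

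**Figure D3:**
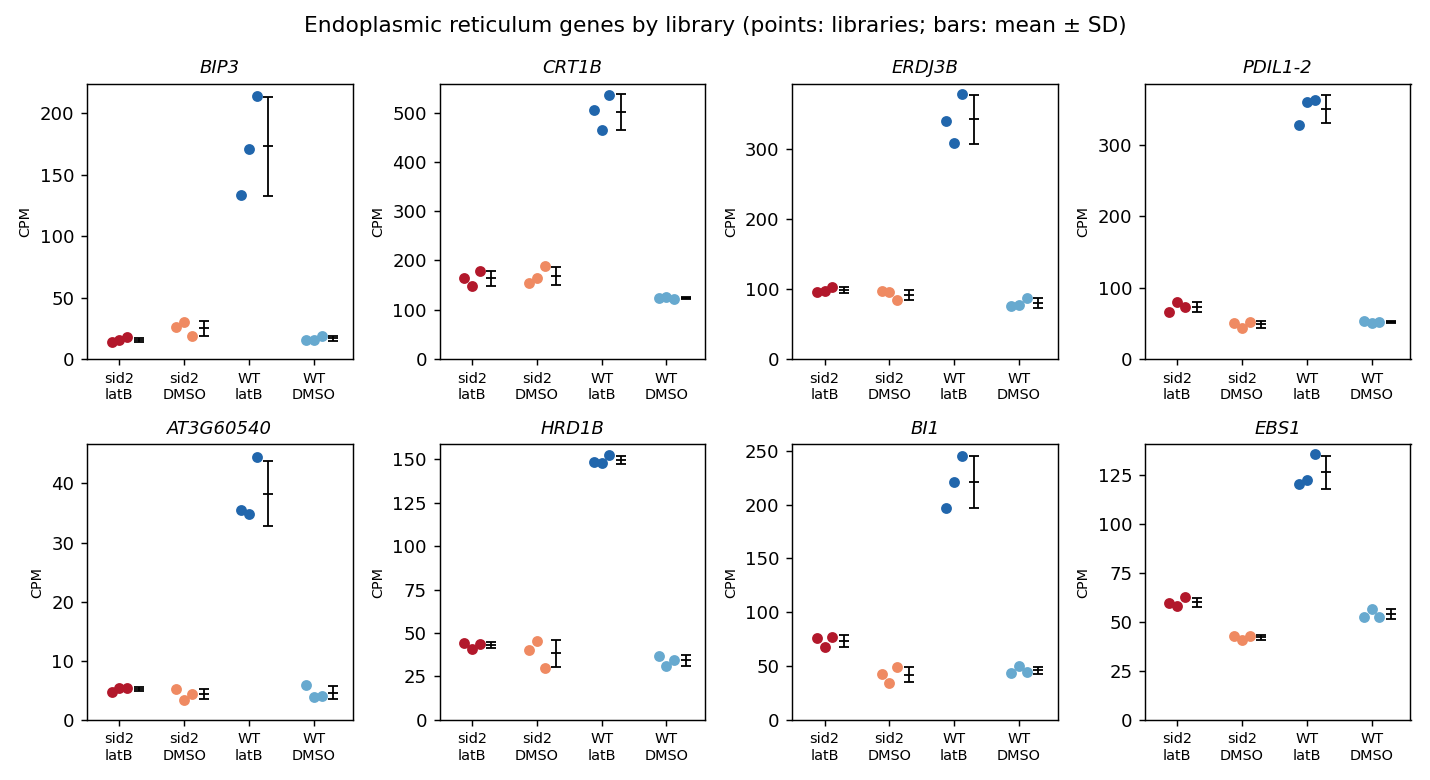
CPM in each library for 8 ER genes, with the group mean and SD (n = 3), for sid2-latB, sid2-DMSO, WT-latB and WT-DMSO from left to right. In each panel the 3 WT-latB libraries lie above the 9 others, BIP3 at 134 to 214 CPM against at most 30.2 CPM.

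The upstream sequences of these genes were searched for motifs known from ER stress promoters. The ER stress response element I, which is CCAAT and CACG with any 10 bases between them, on either strand, was in the 250 bases before the gene start in 7 of 36 genes of the chaperone, disulfide isomerase and SEC61 lists (19.4%), against 187 of 26635 genes with such a window in the genome (0.702%). All tested genes held it in 0.911%, those with a lower interaction in 2.08% and those with a higher one in 0.699%. The element CCACGTCA was in 3 of the 36 (8.33%), against 1.27% of all genes, and ER stress response element II, which is ATTGG and CCACG with any 1 base between them, was in none, against 0.0638%. WRKY core letters, TTGACC or TTGACT, were in 30.6% of the 36 and 28.4% of all genes. A match describes these letters and is not a site of binding. The following stretches are shown because they hold element I in 5 of the genes with a lower interaction. They read 5′ to 3′ on the strand of the gene in TAIR10.1, with matches in capitals. A match that begins with CGTG and ends with ATTGG is element I on the other strand, and in CRT1A the outer capitals mark CCACGTCA.
BIP3, chr1:2931914-2932038, minus strand: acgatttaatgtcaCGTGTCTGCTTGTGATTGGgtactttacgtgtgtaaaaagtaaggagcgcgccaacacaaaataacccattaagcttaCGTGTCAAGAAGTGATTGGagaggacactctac
P58IPK, chr5:749971-750070, plus strand: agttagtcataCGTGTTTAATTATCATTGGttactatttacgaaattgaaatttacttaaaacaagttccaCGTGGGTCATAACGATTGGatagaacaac
AT3G60540, chr3:22375936-22376020, minus strand: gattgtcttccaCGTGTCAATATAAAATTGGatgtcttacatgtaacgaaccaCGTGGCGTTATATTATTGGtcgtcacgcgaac
PDIL1-2, chr1:29126561-29126624, plus strand: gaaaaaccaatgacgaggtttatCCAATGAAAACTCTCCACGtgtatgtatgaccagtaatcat
CRT1A, chr1:21092710-21092819, minus strand: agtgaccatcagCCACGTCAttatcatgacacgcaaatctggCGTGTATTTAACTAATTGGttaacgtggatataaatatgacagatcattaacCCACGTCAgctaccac
BIP3, P58IPK (the gene of a J-domain chaperone) and AT3G60540 held 2 copies each. The interactions of P58IPK and CRT1A were -0.97 and -1.12, both past the threshold.

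Genes of SA synthesis and response had lower interactions in part. Of 12 SA synthesis genes, 4 were lower and none higher. For ICS1 the log2 response was -0.14 in sid2 and 2.58 in WT, an interaction of -2.73 ± 0.21 (edgeR adjusted p = 2.85e-05). Under DMSO its level was higher in sid2 than in WT by 4.03 on the log2 scale. PBS3, the enzyme that conjugates isochorismate to glutamate, had 40.7, 51.4 and 60.7 CPM in sid2-latB, against 34.2, 17.4 and 30.1 CPM in sid2-DMSO, and 99.8, 151 and 204 CPM in WT-latB, against 7.91, 9.04 and 6.61 CPM in WT-DMSO. WT-latB libraries were the highest and WT-DMSO the lowest, with the sid2 groups between them, and the interaction was -3.37 ± 0.39 (edgeR adjusted p = 0.000142). CBP60G, a transcription factor of ICS1, had an interaction of -2.45 ± 0.36 (edgeR adjusted p = 0.000531), with a log2 response of 0.88 in sid2 that did not pass and 3.32 in WT. SARD1, its paralogue, had -1.18 ± 0.33 and lost the call without sid2-latB replicate 1, where edgeR gave an adjusted p of 0.0519. ICS2, the second isochorismate synthase gene, had 0.02 and did not pass, and it fell in both genotypes, by 1.80 in sid2 and 1.82 in WT.

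Of 21 SA response genes, 6 were lower and 1 higher, with a median interaction of -0.40 and median log2 responses of 0.84 in sid2 and 1.72 in WT. The median was -0.25 without sid2-DMSO replicate 3, and under limma on log2(TPM + 1) it was -1.28, with 13 lower and 1 higher. Over all genes that limma fit had a median of -0.22, with 3583 lower and 1644 higher. PR5, a thaumatin-like antifungal protein gene, had 68.6, 100.4 and 69.0 CPM in sid2-latB, against 56.8, 49.6 and 53.2 CPM in sid2-DMSO, and 512, 608 and 859 CPM in WT-latB, against 39.0, 57.1 and 66.4 CPM in WT-DMSO. The sid2 groups and WT-DMSO lay near each other and WT-latB far above, and the interaction was -3.03 ± 0.32 (edgeR adjusted p = 9.65e-05). PR2, a beta-1,3-glucanase gene, had 122, 179 and 109.6 CPM in sid2-latB, against 126, 203 and 142 CPM in sid2-DMSO, and 734, 782 and 884 CPM in WT-latB, against 106, 133 and 187 CPM in WT-DMSO. Its interaction was -2.70 ± 0.33 (edgeR adjusted p = 0.000201). PNP-A, a secreted peptide gene, rose in both genotypes, by 1.78 in sid2 and 4.30 in WT on the log2 scale, and had an interaction of -2.51 ± 0.33. AIG1, a GTP-binding protein gene induced in resistance to bacteria, had -2.79 ± 0.33. The member that was higher was LURP1, with 1.18, a call that was lost without WT-DMSO replicate 1 or 3, any WT-latB replicate, sid2-DMSO replicate 3 or sid2-latB replicate 1, and with library size alone.

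PR1 did not pass the interaction test. Its log2 response was 4.69 in sid2 and 5.22 in WT, an interaction of -0.52 ± 1.31 (edgeR adjusted p = 0.808). The sid2 response rests on 249 reads over the 3 sid2-latB libraries and 7 reads over the 3 sid2-DMSO libraries, and the interaction was 0.64 without sid2-DMSO replicate 3 and -1.17 without sid2-latB replicate 3. On the linear scale the increase of PR1 in sid2 minus that in WT was -4245 CPM (SE 470), so the outcome for this gene depended on the scale. Of the named genes past the threshold, none of 180 had opposite signs on the log2 and linear scales. Over all genes, 7 of the 2436 higher ones and 0 of the 1948 lower ones did. PR1 had the same sign on both scales, so such counts do not measure its dependence on the scale. Limma on log2(TPM + 1), which shrinks changes of low genes, gave PR1 an interaction of -2.82 with an adjusted p of 0.00295. FMO1 and ALD1, enzymes of the pipecolic acid branch of systemic resistance, rose in both genotypes and did not pass the interaction, with -3.44 and -1.54. PAD3, the last enzyme of camalexin synthesis, rose by 3.66 in sid2 and 4.10 in WT, with an interaction of -0.44 that did not pass. Within the same pathway CYP79B2, which makes indole-3-acetaldoxime, had 35.3, 50.6 and 30.2 CPM in sid2-latB, against 24.1, 19.1 and 26.3 CPM in sid2-DMSO, and 73.2, 80.2 and 127 CPM in WT-latB, against 12.8, 7.76 and 8.78 CPM in WT-DMSO. Its interaction was -2.52 ± 0.36 (edgeR adjusted p = 0.000407).

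Receptors and signalling genes of immunity had lower interactions in part. Of 7 genes of the EDS1 node and its helper NLR receptors, 4 were lower and none higher. PAD4, a lipase-like partner of EDS1, had 65.5, 73.4 and 100.5 CPM in sid2-latB, against 87.0, 64.8 and 89.6 CPM in sid2-DMSO, and 170.2, 172 and 268 CPM in WT-latB, against 72.0, 62.3 and 88.7 CPM in WT-DMSO. The interaction of PAD4 was -1.46 ± 0.30, that of SAG101 -1.44 ± 0.26, that of EDS1 -1.06 ± 0.26 and that of the helper receptor gene ADR1 -1.23 ± 0.20. Of 35 cysteine-rich receptor-like kinase genes, 13 were lower and 2 higher, with a median of -0.51. CRK23 had 6.47, 7.27 and 7.64 CPM in sid2-latB, against 6.20, 4.24 and 6.92 CPM in sid2-DMSO, and 43.7, 47.0 and 43.8 CPM in WT-latB, against 5.41, 5.53 and 6.70 CPM in WT-DMSO. WT-latB was apart from the other groups, which overlapped, and the interaction was -2.63 ± 0.25 (edgeR adjusted p = 6.27e-05). CRK37 had -3.16 ± 0.31, CRK4 -2.41 ± 0.36 and CRK6 -1.82 ± 0.26. Of 56 WRKY factors, 7 were lower and 2 higher. The lower share of 12.5% is near the 10.7% of all genes tested, and under limma on log2(TPM + 1) 17 of 50 were lower and none higher. That fit moved all genes downward, with a median of -0.22 and 3583 lower against 1644 higher, so its WRKY count is not comparable with the 10.7%. The lower ones included WRKY51 at -3.74 ± 0.67, WRKY46 at -2.03 ± 0.35, WRKY70 at -1.95 ± 0.47 and WRKY50 at -1.87 ± 0.43. The higher ones were WRKY22 at 1.43 and WRKY11 at 0.74, and CRK2 at 0.63 and CRK21 at 0.94 among the kinases, and over the fits without one library 0 to 3 WRKY genes and 1 to 3 of the kinases were higher. Of 23 genes of pattern recognition 1 was lower and 1 higher, NHL10 and FLS2, and both lay near the threshold. FLS2 kept its call without WT-DMSO replicate 2, sid2-DMSO replicate 1 or sid2-latB replicate 2 and lost it without any other library, at 0.74 to 1.09 where it was lost and 1.04 over all libraries. NHL10 kept its call without WT-DMSO replicate 1, WT-latB replicate 1, sid2-DMSO replicate 2 or sid2-latB replicate 3 and lost it without any other, at -2.68 to -1.36 where it was lost and -2.49 over all libraries. The median log2 response of these 23 genes was 0.58 in sid2 and 0.97 in WT.

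Genes of the mitochondrial stress response had a median interaction of -1.41, or -0.68 without sid2-DMSO replicate 3, and 4 of 7 were lower. NDB2, an external NAD(P)H dehydrogenase, had 17.3, 22.1 and 16.5 CPM in sid2-latB, against 22.7, 11.8 and 12.2 CPM in sid2-DMSO, and 60.5, 75.8 and 69.4 CPM in WT-latB, against 5.0, 10.05 and 11.5 CPM in WT-DMSO. Its interaction was -2.69 ± 0.40 (edgeR adjusted p = 0.000553), and that of AOX1A, the stress-induced alternative oxidase, was -1.69 ± 0.32 (edgeR adjusted p = 0.00214). The other two, NAC017 and BCS1, fell outside the threshold without some libraries, and the list's count was then 2, without WT-DMSO replicate 1, WT-latB replicate 2, sid2-latB replicate 1 or sid2-latB replicate 3. Of 33 glutathione S-transferase genes 4 (12.1%) were lower and 2 (6.06%) higher, a lower share near the 10.7% of all genes tested. The lower count was 2 without WT-DMSO replicate 2, WT-latB replicate 3, sid2-DMSO replicate 3, or sid2-latB replicate 1 or 2. The lower members were GSTU24, GSTU10, GSTU19 and GSTU7, GSTU19 and GSTU7 being at -1.28 ± 0.26 and -1.43 ± 0.28, and the higher ones GSTU13 and ATGSTU17, a count of 0 to 3 over the fits without one library.

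Genes of cell wall growth had interactions of the opposite sign. All 9 genes of primary wall cellulose synthesis were higher, with a median interaction of 1.47 and median log2 responses of 0.04 in sid2 and -1.50 in WT. CESA1, a catalytic subunit of the cellulose synthase of growing walls, had 167, 221 and 187 CPM in sid2-latB, against 157, 211 and 187 CPM in sid2-DMSO, and 68.8, 78.7 and 50.9 CPM in WT-latB, against 208, 251 and 212 CPM in WT-DMSO. The WT-latB libraries were the lowest and the other groups overlapped, and the interaction was 1.81 ± 0.25 (edgeR adjusted p = 0.000323). CSI1, which links this synthase to cortical microtubules, had 66.9, 83.0 and 68.9 CPM in sid2-latB, against 62.5, 68.1 and 57.3 CPM in sid2-DMSO, and 32.6, 33.0 and 30.1 CPM in WT-latB, against 99.4, 101 and 84.0 CPM in WT-DMSO. Its interaction was 1.79 ± 0.18 (edgeR adjusted p = 8.03e-05), that of CESA3 was 1.47 ± 0.20 and that of the chitinase-like gene POM1 1.70 ± 0.19.

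Of 23 xyloglucan endotransglucosylase/hydrolase genes, whose products cut and rejoin wall xyloglucan, 11 were higher and 1 lower, with a median of 2.50. XTH6 had 45.0, 78.2 and 46.0 CPM in sid2-latB, against 31.5, 89.2 and 46.5 CPM in sid2-DMSO, and 5.11, 4.35 and 4.29 CPM in WT-latB, against 112, 117 and 72.3 CPM in WT-DMSO. Its log2 response was 0.02 in sid2 and -4.45 in WT, an interaction of 4.47 ± 0.48 (edgeR adjusted p = 0.000106). XTH4 and XTH7 had 4.12 ± 0.61 and 2.87 ± 0.38. The lower member was XTH10, at 0.0980, 0 and 0.109 CPM in sid2-latB, against 0.124, 0.231 and 0.285 CPM in sid2-DMSO, and 36.9, 33.5 and 97.5 CPM in WT-latB, against 0.135, 0.319 and 0.370 CPM in WT-DMSO. Its groups other than WT-latB were at or near 0, so the fitted interaction of -9.06 ± 1.54 depends on a few reads, and without WT-latB replicate 3 it was -8.41. Of 16 expansin genes, which loosen walls, 6 were higher and none lower, among them EXPA5 at 2.35 ± 0.52, EXPA11 at 2.24 ± 0.48, EXPA1 at 2.09 ± 0.43 and EXPA6 at 1.76 ± 0.29. Of 45 SAUR genes, auxin-induced genes of cell expansion, 21 were higher and 2 lower. SAUR29 had 7.45, 10.5 and 11.6 CPM in sid2-latB, against 6.01, 13.7 and 16.6 CPM in sid2-DMSO, and 0.496, 0.283 and 0.960 CPM in WT-latB, against 19.8, 14.6 and 13.4 CPM in WT-DMSO. Its interaction was 4.43 ± 0.56 (edgeR adjusted p = 0.000203), and SAUR63 and SAUR62 had 3.65 ± 0.48 and 3.20 ± 0.37. The lower members were SAUR53 at -2.15 and SAUR30 at -2.25. Neighbouring SAUR genes are similar in sequence and could share reads.

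The cytoskeleton genes did not move as one. Of 15 tubulin genes 10 were higher and none lower, with a median of 1.29. TUB5 had 65.5, 55.1 and 72.6 CPM in sid2-latB, against 73.2, 103 and 51.2 CPM in sid2-DMSO, and 6.75, 9.44 and 6.12 CPM in WT-latB, against 51.8, 48.4 and 84.3 CPM in WT-DMSO. The interaction of TUB5 was 2.82 ± 0.38 (edgeR adjusted p = 0.000292), and those of TUA5, TUB6 and TUB2 were 2.17 ± 0.31, 1.60 ± 0.21 and 1.29 ± 0.19. Of 6 actin genes 2 were higher, or 3 without sid2-DMSO replicate 3 or sid2-latB replicate 3 and 4 without WT-latB replicate 2. ACT2, the main actin gene of leaves, had 349.6, 358 and 416 CPM in sid2-latB, against 340.1, 364 and 374 CPM in sid2-DMSO, and 256, 299 and 274 CPM in WT-latB, against 466, 443 and 480.1 CPM in WT-DMSO. Its interaction was 0.80 ± 0.17 (edgeR adjusted p = 0.00405), and the second was ACT11, at under 11 CPM in each library. The 26 genes of actin-binding proteins and myosins had a median of 0.00 (log2), with 3 higher and 5 lower, or 3 lower without sid2-latB replicate 2. Over all libraries 11.5% were higher and 19.2% lower, against 13.4% and 10.7% of all genes tested. FH1, a formin that nucleates filaments at the plasma membrane, had 27.3, 30.5 and 28.0 CPM in sid2-latB, against 25.2, 49.8 and 23.8 CPM in sid2-DMSO, and 9.78, 12.7 and 13.4 CPM in WT-latB, against 84.5, 80.8 and 49.0 CPM in WT-DMSO. Its interaction was 2.38 ± 0.38 (edgeR adjusted p = 0.000806), and the myosin gene XI-1 had 1.07 ± 0.16. The actin-depolymerizing factors ADF4 and ADF2 were on the other side, at -0.95 ± 0.18 and -0.76 ± 0.16. These tubulin and actin copies are similar, and reads could be divided between them.

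**Figure D4:**
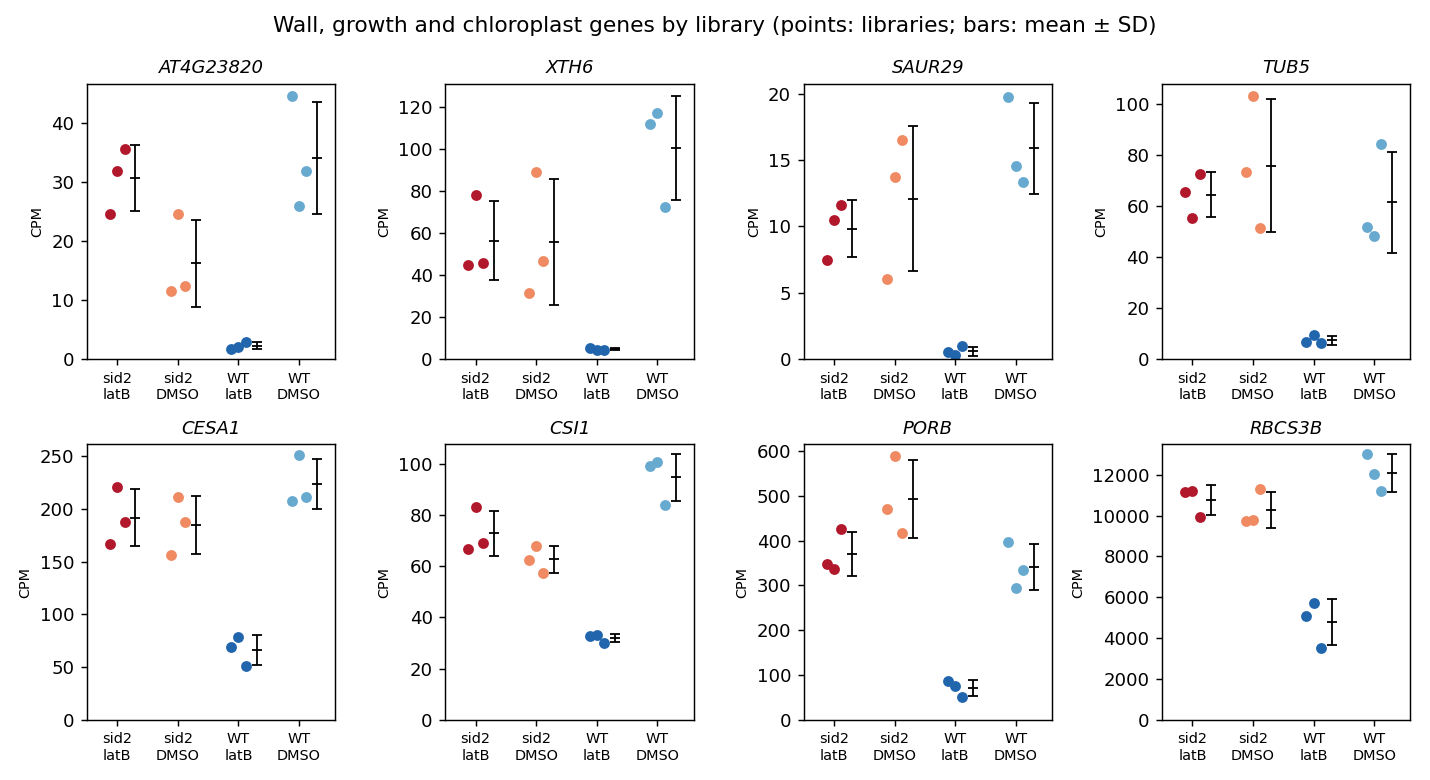
CPM in each library for 8 genes of the cell wall, growth, microtubules and chloroplast, with the group mean and SD (n = 3), for sid2-latB, sid2-DMSO, WT-latB and WT-DMSO from left to right. In each panel the WT-latB libraries are the lowest, XTH6 at 4.30 to 5.11 CPM against at least 31.5 CPM in the other groups.

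Nuclear genes of photosynthesis had smaller interactions in a large share of members. Of 16 chlorophyll synthesis genes 13 were higher and none lower, with a median of 0.99, and 8 were higher under limma on log2(TPM + 1). PORB, a light-dependent protochlorophyllide reductase, had 348, 337 and 427 CPM in sid2-latB, against 472, 588 and 418 CPM in sid2-DMSO, and 86.7, 74.8 and 51.5 CPM in WT-latB, against 396, 294 and 335 CPM in WT-DMSO. Its interaction was 1.86 ± 0.28 (edgeR adjusted p = 0.000553). CHLI2 and CHLD, subunits of magnesium chelatase, had 1.81 ± 0.35 and 1.02 ± 0.17, and the methyltransferase gene CHLM 1.24 ± 0.18. Of 13 Calvin cycle genes 11 were higher and none lower, and 7 were higher without WT-DMSO replicate 2 or sid2-latB replicate 2. RBCS3B, a Rubisco small subunit gene with near copies, had 11170, 11210 and 9928 CPM in sid2-latB, against 9709, 9795 and 11300 CPM in sid2-DMSO, and 5063, 5721 and 3526 CPM in WT-latB, against 13010, 12050 and 11190 CPM in WT-DMSO. WT-latB was the lowest group and the other three overlapped, and the interaction was 1.41 ± 0.24 (edgeR adjusted p = 0.0013). GAPA-2, a glyceraldehyde-3-phosphate dehydrogenase gene, had 1.40 ± 0.25. Of 46 photosystem and antenna genes 34 were higher and none lower, with a median of 0.81. This count was 19 without WT-DMSO replicate 1, 20 without sid2-DMSO replicate 1 and 17 without sid2-latB replicate 1. With library size alone 26 were higher and 1 lower. PSBQA, PSAH2 and Lhca6 had interactions of 1.19 ± 0.24, 1.29 ± 0.27 and 1.43 ± 0.28. Of 71 chloroplast-encoded genes 3 (4.2%) were higher and 4 (5.6%) lower, shares under the 13.4% and 10.7% of all genes tested. Their median was -0.22, and over the fits without 1 library 0 to 3 were higher and 2 to 10 lower.

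Of the leaf cell type markers, those of mesophyll and epidermis were higher in most members tested. Those of xylem, phloem and guard cells were not. In bulk RNA, fewer cells of a type and less RNA per cell cannot be told apart. The 8 mesophyll markers, which overlap the photosynthesis lists, summed to 71380 to 78960 CPM in sid2-latB, 84150 to 91680 in sid2-DMSO, 29600 to 41810 in WT-latB and 75390 to 86050 in WT-DMSO. Of these markers 5 were higher, or 3 without WT-DMSO replicate 1 or sid2-latB replicate 1. The epidermis markers, 10 with GL1 at 0 in every library, summed to 544 to 857 CPM in sid2-latB, 512 to 694 in sid2-DMSO, 235 to 457 in WT-latB and 749 to 976 in WT-DMSO. Of 9 epidermis markers tested 7 were higher and none lower, a count of 4 with library size alone and without WT-DMSO replicate 2, WT-latB replicate 3, sid2-DMSO replicate 1 or 2, or sid2-latB replicate 2, led by CER3, a wax synthesis gene, at 2.14 ± 0.24. The 9 xylem markers summed to 13.0 to 31.8 CPM over all libraries and none passed. Without sid2-DMSO replicate 3, 1 xylem marker was higher. The part of cell composition in the interaction was not tested.

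Of the genes that passed in both genotypes, 29 rose in sid2 and fell in WT and 30 fell in sid2 and rose in WT. The 29 were 4.53% of the genes that rose in sid2 and 0.705% of those that fell in WT, and the 30 were 13.7% of those that fell in sid2 and 0.748% of those that rose in WT. ADC2, the stress-induced arginine decarboxylase of putrescine synthesis, had 83.4, 116 and 80.3 CPM in sid2-latB, against 169.5, 158 and 128 CPM in sid2-DMSO, and 283, 245 and 296 CPM in WT-latB, against 84.3, 75.2 and 77.1 CPM in WT-DMSO. In sid2 the latrunculin B libraries lay below the DMSO libraries, and in WT above, with no overlap in either genotype. The log2 response was -0.70 in sid2 (edgeR adjusted p = 0.0227) and 1.80 in WT, an interaction of -2.50 ± 0.23 (edgeR adjusted p = 4.07e-05). GDH2, a glutamate dehydrogenase of mitochondria, had 14.7, 14.53 and 16.5 CPM in sid2-latB, against 26.9, 41.4 and 21.4 CPM in sid2-DMSO, and 75.2, 76.8 and 126 CPM in WT-latB, against 31.6, 25.1 and 22.5 CPM in WT-DMSO, an interaction of -2.78 ± 0.35. CYP76C6, a cytochrome P450 gene, had 39.8, 43.7 and 47.9 CPM in sid2-latB, against 95.7, 69.8 and 65.6 CPM in sid2-DMSO, and 145, 130.1 and 194 CPM in WT-latB, against 71.0, 69.0 and 65.8 CPM in WT-DMSO, an interaction of -2.0 ± 0.24. In both genes the direction differed between the genotypes without overlap of latrunculin B and DMSO libraries.

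The aquaporin gene PIP1;5 went the other way, with 101, 98.3 and 147 CPM in sid2-latB, against 49.1, 80.5 and 69.9 CPM in sid2-DMSO, and 21.0, 21.8 and 20.6 CPM in WT-latB, against 83.3, 70.1 and 109 CPM in WT-DMSO. Its log2 response was 0.80 in sid2 (edgeR adjusted p = 0.0432) and -2.05 in WT, an interaction of 2.85 ± 0.30 (edgeR adjusted p = 9.24e-05). Genes AT4G34950 and AT2G16660 of the major facilitator superfamily also rose in sid2 and fell in WT. AT4G34950 had 31.1, 24.4 and 42.7 CPM in sid2-latB, against 3.10, 7.17 and 17.6 CPM in sid2-DMSO, and 6.75, 9.21 and 6.17 CPM in WT-latB, against 118, 170.4 and 76.2 CPM in WT-DMSO. The sid2-DMSO libraries of this gene were spread, replicate 3 being the highest, and the interaction was 5.87 ± 0.66, or 6.74 without it. AT2G16660 had 6.30 ± 0.77, or 7.27 without the same library. SWEET12, a sucrose exporter of phloem parenchyma, had 0.686, 1.95 and 1.80 CPM in sid2-latB, against 5.58, 4.47 and 3.85 CPM in sid2-DMSO, and 12.9, 11.9 and 19.1 CPM in WT-latB, against 4.12, 2.07 and 2.91 CPM in WT-DMSO. It fell in sid2 by 1.66 and rose in WT by 2.28 on the log2 scale, an interaction of -3.93 ± 0.50 (edgeR adjusted p = 0.00023).

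In 136 of the 4384 genes past the interaction threshold, out of 18149 tested, the response passed in sid2 and did not pass in WT. Regardless of the interaction, 154 genes rose and 104 fell in sid2 without passing in WT. SUC2, the sucrose symporter of companion cells, had 117, 126 and 128 CPM in sid2-latB, against 265, 259 and 242 CPM in sid2-DMSO, and 134, 191 and 155 CPM in WT-latB, against 127, 164 and 136 CPM in WT-DMSO. The sid2-DMSO libraries were above the other 9, which overlapped, and the log2 response was -1.05 in sid2 and 0.16 in WT. Its interaction was -1.21 ± 0.20 (edgeR adjusted p = 0.00115), and under DMSO sid2 was higher than WT by 0.84 (edgeR adjusted p = 0.00238). Of 9 phloem markers 5 were lower and none higher, and PP2-A1, AHA3 and SUC2 shared this order, with interactions of -0.85 ± 0.20, -0.92 ± 0.22 and -1.21 ± 0.20. The phloem markers summed to 820 to 881 CPM in sid2-latB, 1259 to 1358 in sid2-DMSO, 854 to 984 in WT-latB and 709 to 973 in WT-DMSO, and the sid2-DMSO libraries stood apart in this sum. The part of phloem RNA in the interaction was not tested.

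PPCK1, the kinase of phosphoenolpyruvate carboxylase, had 43.5, 34.4 and 46.3 CPM in sid2-latB, against 10.2, 7.10 and 20.5 CPM in sid2-DMSO, and 17.1, 21.9 and 12.3 CPM in WT-latB, against 22.9, 25.1 and 27.5 CPM in WT-DMSO. Here sid2-latB lay above the other groups, with a log2 response of 1.72 in sid2 and -0.56 in WT and an interaction of 2.28 ± 0.42 (edgeR adjusted p = 0.00209). AT5G42720, a gene of glycosyl hydrolase family 17, had 26.9, 31.7 and 21.6 CPM in sid2-latB, against 11.5, 10.3 and 10.5 CPM in sid2-DMSO, and 10.3, 12.6 and 10.5 CPM in WT-latB, against 12, 15.3 and 12.1 CPM in WT-DMSO. The sid2-latB libraries were again the highest, without overlap, and the interaction was 1.55 ± 0.24 (edgeR adjusted p = 0.000741). MORF1, an organelle RNA editing factor, had an interaction of 1.83 ± 0.31, and its level in sid2 minus that in WT under DMSO was -1.27 on the log2 scale.

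Genes of abscisic acid and water deficit had lower interactions in part. Of 21 genes 9 were lower and 1 higher, with a median interaction of -1.14. Their median log2 difference of sid2 over WT was 0.87 under DMSO and -0.41 under latrunculin B. COR47, a dehydrin gene, had 110.1, 106 and 87.9 CPM in sid2-latB, against 268, 224 and 188 CPM in sid2-DMSO, and 138, 112 and 115 CPM in WT-latB, against 111, 135 and 126 CPM in WT-DMSO. Its sid2-DMSO libraries were the highest, and the log2 response was -1.16 in sid2 and -0.03 in WT, an interaction of -1.14 ± 0.22 (edgeR adjusted p = 0.00245). HAB1, a protein phosphatase that restrains abscisic acid signalling, had 39.3, 34.3 and 22.9 CPM in sid2-latB, against 51.0, 34.4 and 32.3 CPM in sid2-DMSO, and 71.9, 82.7 and 80.1 CPM in WT-latB, against 20.9, 25.7 and 20.7 CPM in WT-DMSO. For HAB1 it was WT-latB that lay highest, and the interaction was -2.09 ± 0.29 (edgeR adjusted p = 0.00037). HAI1, of the same phosphatase clade, had -3.31 ± 0.67, and the homeobox gene HB-12 -2.08 ± 0.34. The higher member was CYP707A3, a gene of abscisic acid breakdown, at 1.37.

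**Figure D5:**
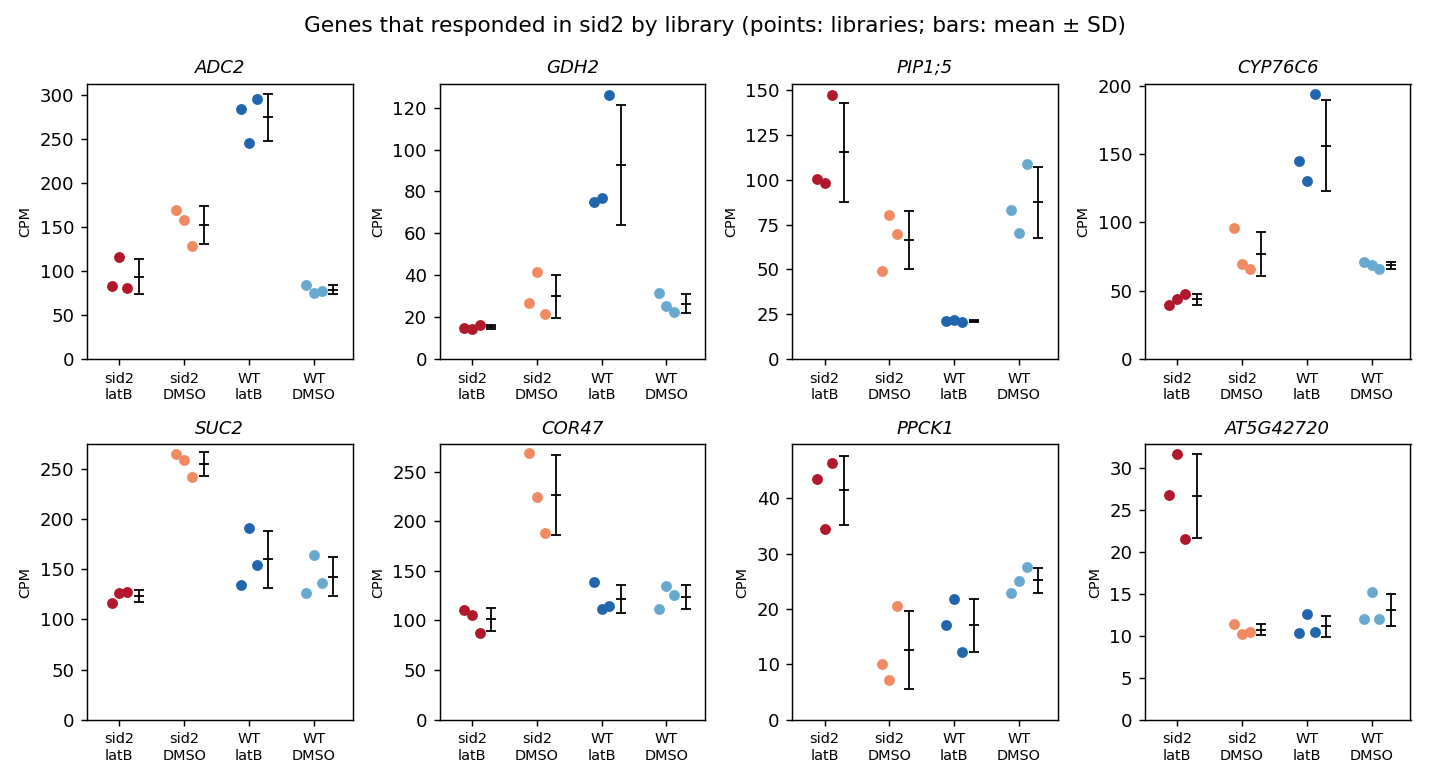
CPM in each library for 8 genes that passed in sid2, with the group mean and SD (n = 3), for sid2-latB, sid2-DMSO, WT-latB and WT-DMSO from left to right. ADC2, GDH2, PIP1;5 and CYP76C6 changed in opposite directions in the genotypes, SUC2 and COR47 were highest in sid2-DMSO, and PPCK1 and AT5G42720 were highest in sid2-latB.

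The largest interactions whose calls held under other scalings and without any 1 library were outside these lists for the most part. Expression was filtered only on the mean over libraries, a log2 CPM of 2 or more, so some of these genes were near 0 in a group. AT4G01390 had a mean of 0.031 CPM in WT-DMSO and XTH10 0.069 CPM in sid2-latB. Also larger in size than the interaction of AT3G22910 below were those of AT5G15500, at -4.97 ± 1.08, and RLP7, at -4.35 ± 0.70. Their WT-DMSO means were 0.80 and 0.64 CPM. AT3G22910, of a family of cation-transporting ATPases, had 8.28, 12.6 and 10.6 CPM in sid2-latB, against 5.76, 1.70 and 5.50 CPM in sid2-DMSO, and 157, 183 and 279 CPM in WT-latB, against 5.75, 5.79 and 3.05 CPM in WT-DMSO. Its interaction was -4.16 ± 0.51 (edgeR adjusted p = 0.000189). AT2G41380, a methyltransferase gene, had 4.46, 3.90 and 5.08 CPM in sid2-latB, against 4.03, 5.86 and 4.57 CPM in sid2-DMSO, and 30.7, 42.5 and 49.1 CPM in WT-latB, against 4.73, 3.88 and 1.25 CPM in WT-DMSO. Its log2 response was -0.10 in sid2 and 3.66 in WT, an interaction of -3.76 ± 0.49. In both genes WT-latB lay far above the other groups. The sid2-latB libraries of AT3G22910 were above both DMSO groups, and the other groups of AT2G41380 overlapped. CHX17, a cation/proton exchanger gene, had -4.73 ± 0.70, or -4.10 without WT-latB replicate 3. In the other direction, AT4G23820, of the pectin lyase family, had 24.5, 31.9 and 35.5 CPM in sid2-latB, against 11.5, 24.6 and 12.4 CPM in sid2-DMSO, and 1.74, 2.09 and 2.92 CPM in WT-latB, against 44.5, 25.8 and 31.8 CPM in WT-DMSO. Its interaction was 4.83 ± 0.43 (edgeR adjusted p = 4.07e-05). AT2G10940, a gene of the lipid transfer protein family, had 386, 610.4 and 449 CPM in sid2-latB, against 274, 486 and 428 CPM in sid2-DMSO, and 41.5, 49.4 and 36.1 CPM in WT-latB, against 878, 666 and 389.6 CPM in WT-DMSO. WT-latB libraries were lower than all others in both, and the interaction of AT2G10940 was 4.21 ± 0.40 (edgeR adjusted p = 6.6e-05).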

How the data were processed

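RNA from 12 leaf samples was made into strand-specific libraries, per the labels' protocols. The submitters' processing notes name Trimmomatic, Salmon 1.3.0 and TAIR10. Each deposited table holds estimated counts and TPM per transcript, which the authors obtained from Salmon, for 32875 transcripts whose lengths are coding lengths without UTRs. Reads of near-identical genes were shared by estimation.

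Estimated counts were summed per locus, rounded to whole numbers and tested in R 4.3.3 with edgeR 4.0.16: TMM scaling, filterByExpr, a quasi-likelihood fit of 4 groups over 12 libraries, a contrast for the interaction, and Benjamini-Hochberg adjustment over 18149 genes at 0.05. The SE of a log2 interaction was taken as its absolute value divided by the square root of the F statistic of its test. CPM use TMM library sizes. The common dispersion gave a biological coefficient of variation of 0.211. The scripts were tested on simulated data. Alternatives used DESeq2 1.42.0, other scalings, no filter, limma 3.58.1 on log2(TPM + 1) or log2(TPM + 0.1) of the deposited TPM, and 11 libraries with each left out.

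Named genes were ICS1, ICS2 and PR1; the 12 largest stable interactions each way at an average log2 CPM of at least 2; 10 genes with opposite responses; 8 that passed in sid2 and not in WT; and up to 4 members of each list, by the smallest p. Others were named after their values were seen, such as BIP2, P58IPK, CRT1A, LURP1, PAD3 and list members that did not pass. The comparison and the 43 lists were chosen with earlier results of these data known. Promoter windows come from the RefSeq annotation of TAIR10.1, and 96.4% of 32194 transcripts had a coding length equal to one of its models. No p-value is adjusted over a list alone.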

Additional observations from a re-analysis of the deposited data

Results flagged for a closer look

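The latrunculin B response differed between sid2 and WT, by edgeR's test of the interaction itself, in 2436 genes that were higher and 1948 that were lower, and 10 genes with opposite responses were examined one by one. ADC2 had an interaction of -2.50, GDH2 -2.78, CYP76C6 -2.0 and AT2G46600, an EF-hand protein gene, -1.43, each with lower levels under latrunculin B than under DMSO in sid2 and higher ones in WT. In the other direction PIP1;5 had 2.85, AT4G34950 5.87, AT2G16660 6.30 and emb2746 1.98.

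AT4G01390 had 0, 0 and 0.109 CPM in sid2-latB, against 13.1, 8.79 and 0.285 CPM in sid2-DMSO, and 9.18, 6.67 and 14.0 CPM in WT-latB, against 0, 0 and 0.0925 CPM in WT-DMSO. Its interaction of -15.33 was fitted against libraries at 0, so that its size depends on the prior count, and it was -17.92 without WT-DMSO replicate 3, -17.91 without sid2-latB replicate 3 and -14.62 without sid2-DMSO replicate 1. AT2G26695 had 3.28, 5.15 and 4.58 CPM in sid2-latB, against 34.8, 38.8 and 8.71 CPM in sid2-DMSO, and 22.0, 11 and 18.9 CPM in WT-latB, against 3.72, 3.46 and 3.33 CPM in WT-DMSO, an interaction of -4.97. In both genes sid2-DMSO replicate 3 was the lowest library of its group.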

How the results depend on the processing

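The direction and the call of the named genes held in most alternatives: 181 of 182 under RLE scaling, DESeq2 and no filter, 179 under upper-quartile scaling and 177 under library size alone. Most of these genes were chosen for a small interaction p. Some were chosen because their calls held under RLE scaling, library size alone, DESeq2 and every left-out library. Their stability was thus in part fixed by the choice and does not measure that of other genes. Leaving out single libraries gave 2040 values with the same call, 139 that lost it and 5 that changed sign. The counts moved more. Higher genes were 1943 to 2580 and lower genes 1451 to 2051 over the 12 fits without one library. Library size alone gave 2975 lower genes, limma on log2(TPM + 0.1) gave 1620 higher and 3194 lower, and limma on log2(TPM + 1) gave 1644 higher and 3583 lower. A minimum absolute log2 difference of 1, which can only remove genes, left 1133 lower genes. The median interaction of all genes was 0.02 with TMM and -0.17 with library size alone. Under limma with pseudocounts of 0.1 and 1, which used no TMM scaling, it was -0.23 and -0.22. The cause of these shifts was not tested. The interaction of ICS2, 0.02, was -0.16 with library size alone, -0.43 and -0.40 under limma with pseudocounts of 0.1 and 1, -0.08 without WT-DMSO replicate 2, -0.12 without WT-latB replicate 3, -0.20 without sid2-DMSO replicate 3 -0.42 without sid2-latB replicate 2 and, at the other end, 0.21 without sid2-latB replicate 3. PR1 was at 0.64 without sid2-DMSO replicate 3, at -1.17 without sid2-latB replicate 3 and at -2.82 under limma on log2(TPM + 1). No paired analysis was possible because the labels give no replicate numbers or shared batches. The search for ER retention endings was not run, as no protein table was used.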

Other observations

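The proteasome list was drawn by a rule and also held genes outside the proteasome, FUS12 and EER5 among them. Of its 30 genes tested 7 were lower and none higher, and 15 were lower with library size alone. The lower count was 4 without WT-DMSO replicate 2 or 3, WT-latB replicate 3, or sid2-latB replicate 1 or 2. PAB1, a core subunit gene, had an interaction of -0.80 ± 0.19, and PA200, of the proteasome activator, -0.61 ± 0.16. Of 12 autophagy genes 5 were lower (NBR1, ATG8A, ATG8B, ATG8I and ATG5) and 3 without WT-DMSO replicate 1 or 2, WT-latB replicate 3 or sid2-latB replicate 2. NBR1, a receptor for ubiquitinated cargo, had 232, 204 and 291 CPM in sid2-latB, against 149.9, 129 and 168 CPM in sid2-DMSO, and 443, 402 and 504 CPM in WT-latB, against 135, 131 and 141 CPM in WT-DMSO. Its interaction was -1.03 ± 0.21 (edgeR adjusted p = 0.00393).

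The list of nuclear ribosomal protein genes of any compartment was drawn by a rule and also held other genes, such as the elongation factor gene eEF-1Bb1. Of its 292 genes tested 98 were higher and 4 lower, with a median of 0.47. With library size alone 58 were higher, and 65 without WT-latB replicate 1. The leading members were AT3G13120, AT4G28360, AT4G17560 and AT2G43030, the first at 1.75 ± 0.20. Of 40 mitochondrion-encoded genes 20 were lower and none higher, or 13 without WT-DMSO replicate 2 or WT-latB replicate 2 and 11 without WT-latB replicate 3. Mitochondrion-encoded genes took 0.0276% to 0.0330% of reads in WT-latB and 0.0063% to 0.0113% in the other groups. Copies of these genes in nuclear DNA could share their reads.

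Among 11 clock genes 3 (27.3%) were lower and 2 (18.2%) higher, against 10.7% and 13.4% of all genes tested. Over the fits without 1 library 2 to 4 were lower and 1 to 2 higher. LHY, a morning transcription factor gene, had 33.1, 34.2 and 26.5 CPM in sid2-latB, against 51.5, 33.4 and 39.6 CPM in sid2-DMSO, and 49.6, 52.6 and 47.7 CPM in WT-latB, against 21.4, 30.9 and 26.5 CPM in WT-DMSO. Its interaction was -1.34 ± 0.25 (edgeR adjusted p = 0.00211), and that of CHE was 1.93 ± 0.37 (edgeR adjusted p = 0.00248). Of 9 guard cell markers KAT1, a potassium channel gene, was lower at -2.97 ± 0.35 and MYB60 and CYP86A2 were higher, and both of these lost their calls without some single libraries. The guard cell shares were 11.1% lower and 22.2% higher, against 10.7% and 13.4% of all genes tested. The guard cell markers summed to 769 to 1089 CPM in sid2-latB, 911 to 1277 in sid2-DMSO, 648 to 698 in WT-latB and 881 to 1050 in WT-DMSO. Of 8 dark-inducible genes 2 (25.0%) were higher and 1 (12.5%) lower, with a median of 0.08, or -0.20 without sid2-DMSO replicate 3. Among them DIN10, a raffinose synthase family gene, had 3.09 ± 0.48. Of the jasmonate list 5 of 20 genes (25.0%) were higher, a count that lay between 1 and 4 over the fits without 1 library. DLO1, a salicylic acid hydroxylase gene, had 3.92, 6.4 and 2.73 CPM in sid2-latB, against 2.60, 1.77 and 0.928 CPM in sid2-DMSO, and 129, 173 and 197 CPM in WT-latB, against 6.08, 14.46 and 16.3 CPM in WT-DMSO. WT-latB was the highest group, and the interaction was -2.47 ± 0.57 (edgeR adjusted p = 0.00739). DLO1 was the 1 lower member among 5 genes of SA turnover tested, whose median interaction was -0.01.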
